A study of Mus musculus with 24 samples.

Results

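Untreated mouse bone marrow-derived macrophages were compared after 18 h and after 3 h of culture, 4 libraries at 18 h against 4 libraries at 3 h, chosen by their labels out of 24 libraries in all. These are the control cells of a study of sphingomyelin d18:1/14:0 (S14), a membrane sphingolipid, and the comparison asks how the control macrophages changed while the treated cells were being followed. Bone marrow of C57BL/6J wild-type mice was grown for 6 days in DMEM with 10% fetal calf serum and 15% medium conditioned by L929 cells, a fibroblast line that secretes the macrophage growth factor M-CSF. The cells were then collected and replated in equal numbers, and experiments ran in DMEM with 10% serum and antibiotics, for which no L929 medium is named. The other groups, 18 h and 3 h as well, received 30 µM S14 or 100 ng/mL of the bacterial membrane component lipopolysaccharide (LPS). All cells were wild type and none carried a transgene. The sample labels call the control cells untreated, the table headers abbreviate them as vehicle, and no vehicle is described. The 18 h libraries differ from the 3 h libraries in time since replating, time in the experimental medium and hour of harvest at once, and these cannot be told apart. The series names 4 mice, but nothing says which libraries come from which mouse, so p-values measure the spread between these libraries, which may in part be technical.

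Macrophages in culture live on signals that pass through the M-CSF receptor Csf1r, which sustain survival, growth and cell division. Cell detachment and replating, serum and microbial products are known to switch on short-lived messages, among them immediate early genes, NF-kB targets and cytokines, whose mRNAs decay within hours once the signal ends. Resting macrophages also express a low, constant level of interferon-stimulated genes, and present antigen on major histocompatibility complex (MHC) class II molecules under the control of the transactivator Ciita.

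The values are the authors' read counts per gene from 3' end sequencing, in which each read comes from near the poly(A) tail of a transcript. Levels are given in CPM, the counts at a common library size after TMM, a scaling that assumes most genes did not change, so each fold change is relative to the typical gene. The 18 h libraries held 4729750 to 6350251 reads in genes and the 3 h libraries 3334182 to 3853600, with 13405 to 15044 and 14792 to 15032 genes detected. Of 12 macrophage markers, all were tested, and their summed level was 34700 to 49100 CPM at 18 h and 22400 to 23600 CPM at 3 h. Most of this sum was the lysozyme gene Lyz2, and of the 12 markers 9 rose, 2 fell and 1 was not called. Csf1r itself averaged 2330 ± 308 CPM at 18 h and 2270 ± 62.8 CPM at 3 h (SD, n = 4 each; edgeR adjusted p = 0.753). Markers of erythroid, NK, mast and fibroblast cells summed to at most 6.58 CPM in every library at either time. Among B cell markers, Ms4a1 and Pax5 had 0 reads in all 8 libraries. These are bulk samples, so fewer cells of a type and less RNA per cell cannot be told apart.

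The library of replicate 4 at 18 h stood apart from the other 3 of its group. Its log2 levels deviated from the group mean with an SD of 0.518, against 0.327 to 0.345 for the other 18 h libraries. It lay at -46.6 on the second principal component, where the other 18 h libraries lay at 18.6 to 24.4. Processed pseudogenes summed to 7080 CPM in it, against 10900 to 12100 CPM in the other 18 h libraries. Added spike-in RNA took 0.0381, 0.0419, 0.0334 and 0.0134% of reads in the 18 h libraries, the lowest share being in replicate 4, and 0.0433, 0.0598, 0.054 and 0.0457% in the 3 h libraries. Every 18 h library lay below every 3 h library in this share, with means of 0.0317 ± 0.0127% at 18 h and 0.0507 ± 0.00763% at 3 h (SD, n = 4 each; two-sided exact permutation p = 0.0286, the smallest that 4 against 4 can give). Scaled to these spike-ins instead of by TMM, the median gene was 0.827 higher on the log2 scale, and 0.342 higher without replicate 4. How much spike-in was added per sample is not stated in what was used here, and whether the cells held more RNA at 18 h was not tested.

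Between the times, 4547 of 11717 tested genes changed by edgeR's quasi-likelihood test at an adjusted p under 0.05, which is 38.8% of them. Of these, 2249 were higher at 18 h (19.2% of tested genes) and 2298 were lower (19.6%), with a median log2 fold change of -0.01 over all tested genes. A change of at least 2-fold was seen for 650 genes that rose (5.55%) and 601 that fell (5.13%). The 4 libraries of one time lay wholly above the 4 of the other for 3842 genes (32.8%). Without replicate 4 of 18 h, 4304 genes were called, and the 3876 of them that were also called with it had the same sign. Scaled to spike-ins the balance was different, with 5426 genes higher and 213 lower, or 2057 higher and 369 lower without replicate 4. The falls named below are therefore falls relative to the typical gene of the same library.

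**Figure D1:**
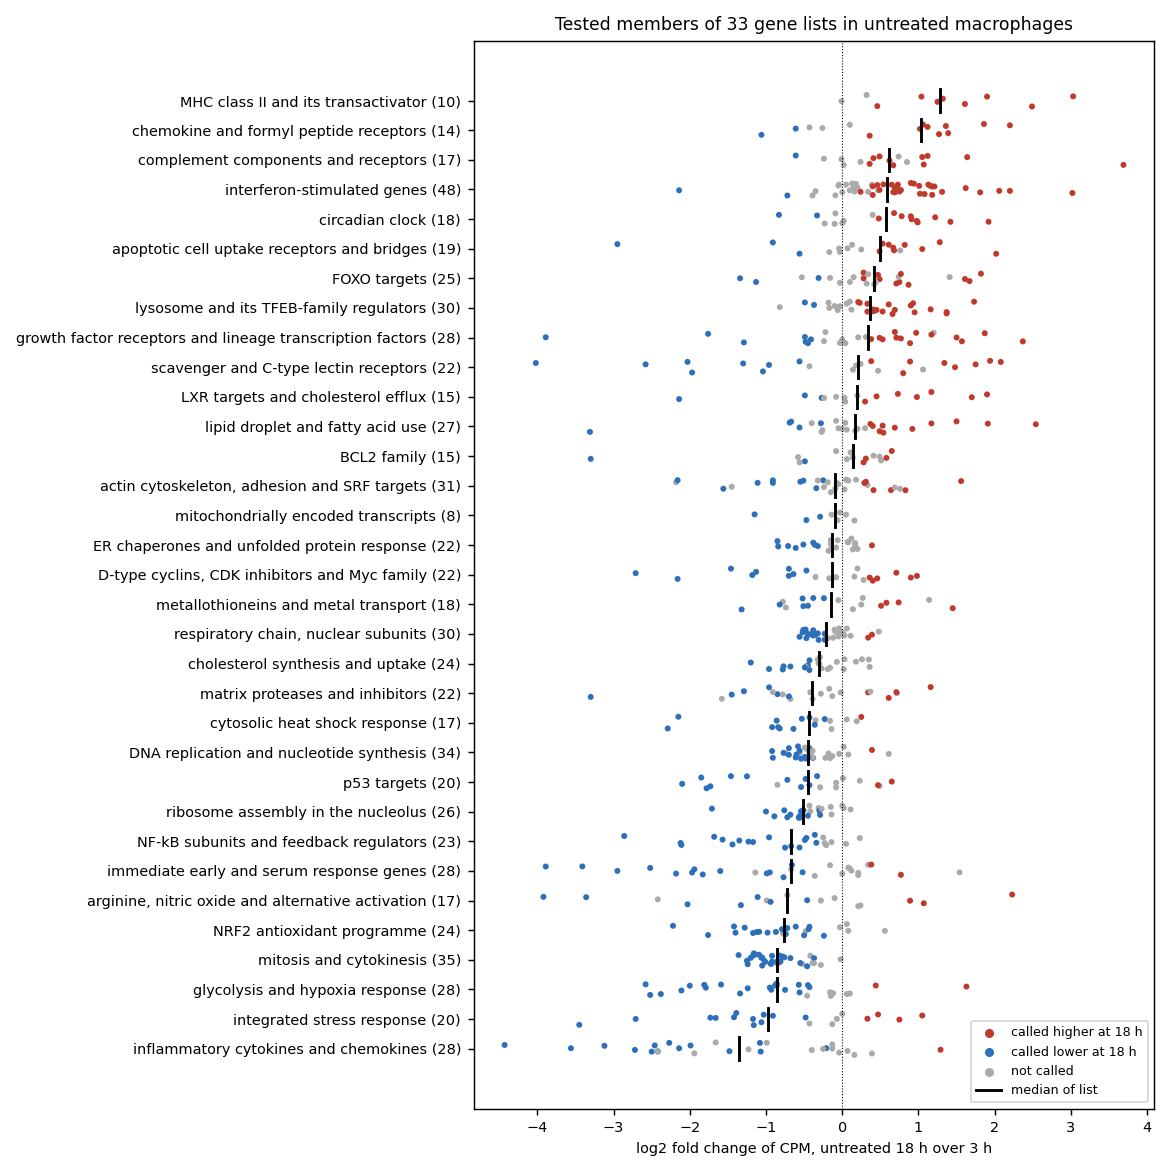
Log2 fold change of untreated 18 h over 3 h (TMM scaling) for each tested member of 33 gene lists, with 1 point per gene and the list's median marked. MHC class II genes (median 1.28) and chemokine receptors (1.04) lie to the right, and cytokines (-1.36), the integrated stress response (-0.97), glycolysis (-0.86) and mitosis (-0.85) to the left, where scaling to spike-ins turns the glycolysis median to 0.01.

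The genes that rose most were of several kinds. Cilp2, which encodes an extracellular matrix protein of cartilage and lies at chr8:69880369-69887687 (GRCm38), had 665 reads over the 18 h libraries and 1 read over the 3 h libraries, a ratio of 468 with a 95% counting interval of 83.7 to 18500. Cyp27a1, the mitochondrial sterol 27-hydroxylase, had 67.4, 79, 76.5 and 126 CPM at 18 h, against 8.71, 9.68, 9.24 and 13.5 CPM at 3 h. The groups were far apart, and the log2 fold change was 3.09 ± 0.19 (SE; edgeR adjusted p = 2.81e-17). Ms4a4c, a membrane protein of the Ms4a cluster that monocytes express, had 122, 104, 75.8 and 118 CPM at 18 h, against 13.7, 16, 12.1 and 8.43 CPM at 3 h. Lrrc14b, the sulfotransferase Sult1a1, the transcription factor Sox4, the copper-binding ferroxidase Cp (ceruloplasmin) and the orphan receptor Gprc5c completed the highest 8, at log2 fold changes of 3.89, 3.49, 3.26, 3.17 and 3.13, with no overlap between the times. Ciita and Ifi44, which follow them, belong to groups described below.

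At the other end stood Id1, an inhibitor of basic helix-loop-helix transcription factors and a target of BMP signalling, at chr2:152736251-152737410. It had 0, 0, 0.28 and 0.7 CPM at 18 h, against 9.89, 10.6, 11.4 and 13.8 CPM at 3 h, or 6 reads against 195. It was close to undetected at 18 h in all 4 libraries, and its log2 fold change of -5.39 (adjusted p = 2.02e-09) was -6.41 without replicate 4. Its relative Id3 had 8.32, 8.85, 11.7 and 12.3 CPM at 18 h, against 123, 139, 175 and 177 CPM at 3 h, and Id2 had a mean of 170 ± 26.3 CPM at 18 h and 418 ± 19.7 CPM at 3 h. All 3 Id genes fell, with log2 fold changes of -3.89 for Id3 and -1.29 for Id2. Smad6, an inhibitor of the BMP pathway and named after its values were seen, fell with them by 4.83 on the log2 scale, at a mean of 0.176 CPM at 18 h and 5.47 CPM at 3 h. Gpr84, a receptor for medium-chain fatty acids, had 4.45, 1.58, 4.33 and 0.525 CPM at 18 h, against 76.5, 64, 79.2 and 104 CPM at 3 h. The calcium pump Atp2b4, the first enzyme of polyamine synthesis Odc1 and the long noncoding RNA B230208H11Rik were also among the lowest 10, at -4.34, -3.92 and -3.51. B230208H11Rik was at -4.38 without replicate 4, and Odc1 may share reads with its processed copies.

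**Figure D2:**
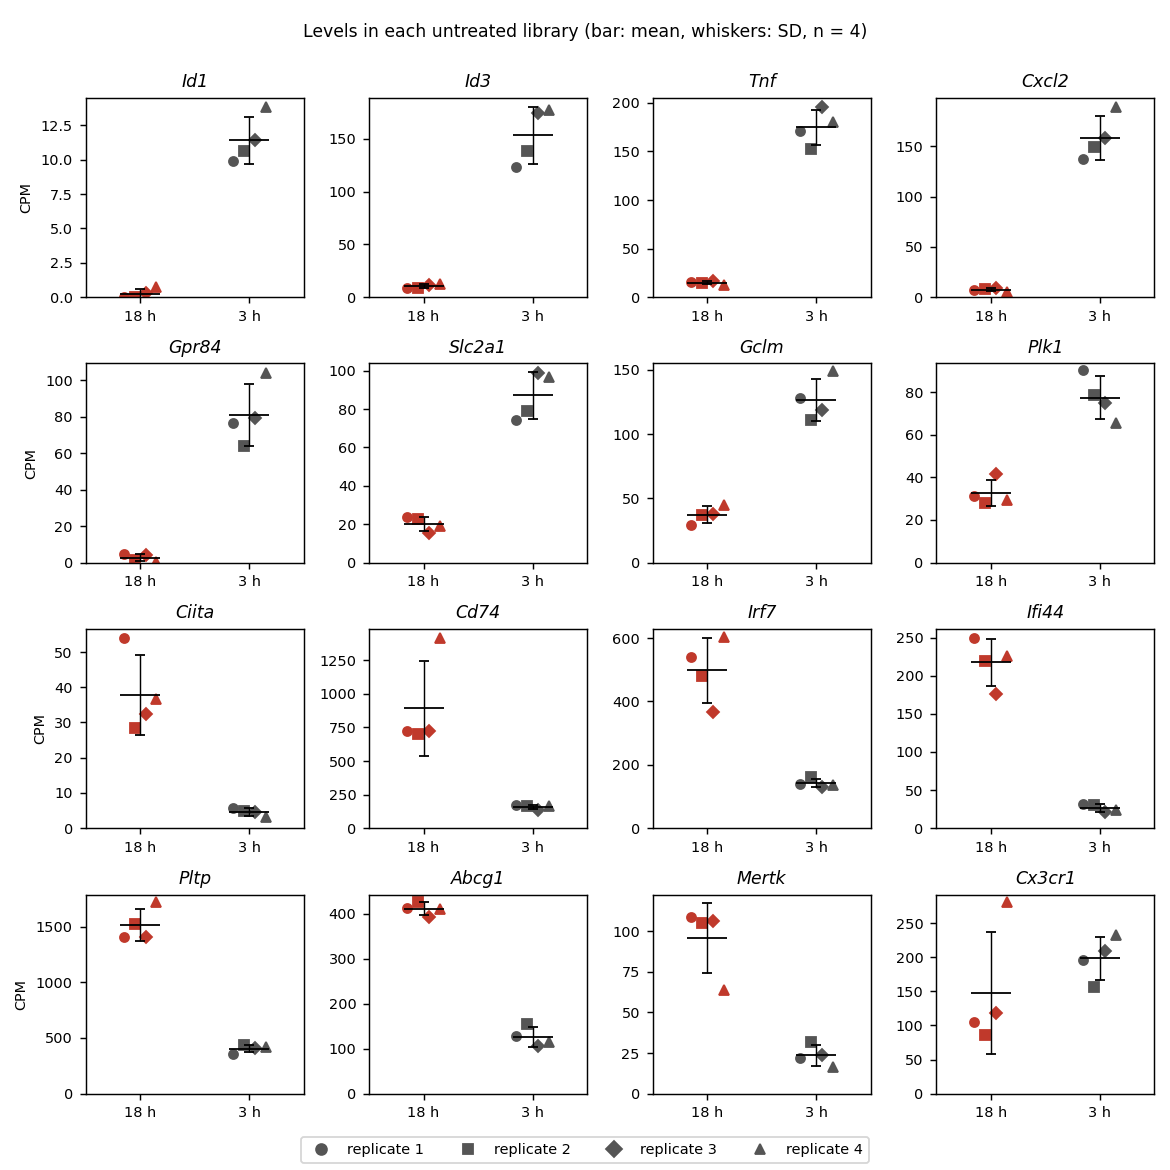
Level in CPM of 16 genes in each of the 8 untreated libraries, 18 h on the left and 3 h on the right of each panel, with a bar for the mean and whiskers for the SD (n = 4). The 18 h points of Id1, Id3, Tnf, Cxcl2, Gpr84, Slc2a1, Gclm and Plk1 lie below all 3 h points, those of Ciita, Cd74, Irf7, Ifi44, Pltp, Abcg1 and Mertk above, and in Cx3cr1 replicate 4 of 18 h lies above all 3 h points while the other 3 lie below.

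The inflammatory messages of the 3 h cells were lower at 18 h. Of 28 tested cytokine and chemokine genes, 14 fell and 1 rose, with a median log2 fold change of -1.36. Scaled to spike-ins 10 fell and 4 rose (median -0.65), and without replicate 4 as well 11 fell and 1 rose (-0.96). Tnf, the founding cytokine of its family, at chr17:35199381-35202007, had 15.1, 14.7, 16.5 and 12.8 CPM at 18 h, against 171, 153, 196 and 180 CPM at 3 h. Its log2 fold change was -3.56 ± 0.11 (SE; edgeR adjusted p = 4.91e-27), with a narrow spread at both times. The neutrophil attractant Cxcl2 had 6.97, 7.9, 8.67 and 5.43 CPM at 18 h, against 137, 149, 158 and 189 CPM at 3 h. The monocyte attractants Ccl7 and Ccl2 fell by 2.72 and 2.27 on the log2 scale, and the interferon-induced chemokine Cxcl10 fell by 2.14. Il1b, which encodes interleukin-1 beta, was low at both times, with 1.94, 5.06, 1.54 and 3.85 CPM at 18 h, against 13, 9.23, 11.9 and 15.6 CPM at 3 h, and still did not overlap (log2 fold change -1.99, adjusted p = 0.0138). The single gene that rose was the T cell attractant Ccl5, at 1.29, and 2 genes rose when replicate 2 of either time was left out.

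The NF-kB pathway, which drives many of these genes, feeds back on itself through inhibitors that are its own targets, and 17 of 23 tested subunits and feedback genes fell and none rose. Their median was -0.67, which spike-in scaling turned to 0.22 with all libraries and left at -0.43 without replicate 4. Nfkbia, the inhibitor that holds NF-kB in the cytoplasm, had 425, 397, 405 and 441 CPM at 18 h, against 1240, 1260, 1420 and 1410 CPM at 3 h (log2 fold change -1.68 ± 0.08 SE, adjusted p = 1.45e-21). Tnip3, a partner of the ubiquitin editor A20, had 97.2, 87.9, 90.2 and 118 CPM at 18 h, against 419, 409, 426 and 443 CPM at 3 h. In both, the libraries of one time lay close together and far from those of the other. Dusp1, a phosphatase that switches off MAP kinases, and Socs3, an inhibitor of cytokine receptors, fell by 2.86 and 2.12. Of 28 tested immediate early and serum response genes, 14 fell and 2 rose (median -0.67, but 0.15 with spike-ins). Egr1 had 3.68, 3.48, 6.15 and 3.33 CPM at 18 h, against 22.1, 25.9, 20.9 and 29.1 CPM at 3 h. Phlda1 and the phosphatase Dusp4 fell by 2.95 and 2.18, the 2 that rose being the Krüppel-like factors Klf2 (0.77) and Klf4 (0.38). The call of Klf4 was lost without replicate 4 of 18 h (log2 fold change 0.16, adjusted p = 0.328) and without replicate 4 of 3 h (0.31, adjusted p = 0.0985), and the libraries of both genes overlapped.

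Genes of glycolysis were lower at 18 h relative to the typical gene, many of them also targets of the hypoxia factor HIF. Of 28 tested, 20 fell and 2 rose, with a median of -0.86, or -0.78 without replicate 4. With spike-ins the median was 0.01, and -0.44 with spike-ins and without replicate 4. The lactate exporter Slc16a3 had 35.2, 36.4, 33.1 and 24.7 CPM at 18 h, against 179, 193, 175 and 228 CPM at 3 h, a log2 fold change of -2.58 ± 0.11 (SE, adjusted p = 1.84e-22). The glucose carrier Slc2a1 had 23.6, 22.8, 15.4 and 19.3 CPM at 18 h, against 74.4, 78.8, 98.6 and 97 CPM at 3 h. Enzymes downstream moved the same way, with Pkm at 982 ± 34.7 CPM at 18 h and 1860 ± 63.1 CPM at 3 h (SD, n = 4 each), and Ldha at 482 ± 63.9 and 932 ± 43.2 CPM in that order. Eno1 fell by 1.81, with the limit that near-identical processed copies of this gene may take some of its reads. Hk2, the inducible hexokinase, was at 35 ± 9 CPM at 18 h and 38.9 ± 3.38 CPM at 3 h and did not pass (adjusted p = 0.418). The 2 that rose were Ndrg1 (1.63) and the mitophagy receptor Bnip3l (0.44), while its relative Bnip3 fell by 1.34.

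The antioxidant genes of the transcription factor NRF2 and the amino acid genes of the integrated stress response were also lower relative to the typical gene. In the NRF2 list 18 of 24 tested genes fell and none rose (median -0.76, against 0.06 with spike-ins and -0.46 with spike-ins and without replicate 4). Gclm, the regulatory subunit of the enzyme that starts glutathione synthesis, had 29, 37.3, 37.6 and 45 CPM at 18 h, against 128, 111, 119 and 149 CPM at 3 h. Its log2 fold change was -1.76 ± 0.12 (SE), and those of the thioredoxin reductase Txnrd1 and the sulfiredoxin Srxn1 were -1.42 and -1.40. Hmox1, the heme oxygenase, was at 233 ± 62.7 CPM at 18 h and 220 ± 13.3 CPM at 3 h and did not pass (adjusted p = 0.683). In the stress response list 12 of 20 tested genes fell and 4 rose, with a median of -0.97. Scaled to spike-ins the balance of calls turned, with 6 higher and 2 lower (median -0.19), and without replicate 4 as well it was 3 higher and 7 lower (-0.57). The count of 4 was 2 without replicate 3 or replicate 4 of 3 h and with the 8 untreated libraries alone. Those that fell include enzymes of serine, glycine and asparagine synthesis, with Shmt2 at -1.66, Psat1 at -1.42 and Asns at -1.39. Asns had 9.1, 13.6, 8.25 and 21 CPM at 18 h, against 32.7, 28.8, 41.2 and 33.2 CPM at 3 h. Ddit3 (CHOP), a factor of the same response that acts in cell death, rose to 114 ± 12.2 CPM at 18 h, against 55 ± 4.4 CPM at 3 h, and Atf4, the factor at its head, was at 356 ± 14.6 and 389 ± 13.8 CPM in that order (adjusted p = 0.179).

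Heat shock genes fell in 11 of 17 cases and rose in 1 (median -0.43, but 0.37 with spike-ins). Hspa1a, the inducible Hsp70, had 11.4, 12.5, 12.2 and 13.5 CPM at 18 h, against 48.7, 65.1, 61.6 and 68.2 CPM at 3 h. Its neighbour Hspa1b was at 12.2 ± 3.44 CPM at 18 h and 53.9 ± 4.26 CPM at 3 h, and since the pair is near-identical the split between them is uncertain. The cytosolic chaperone Hsp90aa1 fell by 0.92. The gene that rose was the constitutive Hspa8 (0.25), and none rose without replicate 2 of 18 h or without replicate 3 or 4 of 3 h. Of the genes for chaperones of the endoplasmic reticulum, 8 of 22 fell and 1 rose (median -0.14, but 0.72 with spike-ins), led by the translocon subunit Sec61b at -0.85. The share of this list called was 40.9%, near the 38.8% of all tested genes. The gene that rose was Sdf2l1 (0.39), and 2 rose without replicate 3 of 18 h or replicate 1 of 3 h.

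Genes of cell division were lower at 18 h relative to the typical gene, both those of mitosis and, in part, those of DNA replication. Of 35 tested genes of mitosis and cytokinesis, 29 fell and none rose, with a median of -0.85. Scaled to spike-ins the median was -0.06, with none lower and 1 higher, and without replicate 4 as well it was -0.54, with 9 lower and none higher. In many such genes the promoter holds a CCAAT box and a cell cycle homology region (CHR), TTTGAA, the elements of the DREAM and MMB complexes, which repress them in resting cells and activate them in dividing ones. The promoters of Plk1 and Cdk1, the kinases that drive mitosis, are shown because they hold both. They run from 250 bases before to 50 after the RefSeq start (GRCm38.p6), 5′ to 3′, with matches on either strand in capitals, Plk1 at chr7:122159185-122159484 on the plus strand and Cdk1 at chr10:69352863-69353162 on the minus strand.
Plk1: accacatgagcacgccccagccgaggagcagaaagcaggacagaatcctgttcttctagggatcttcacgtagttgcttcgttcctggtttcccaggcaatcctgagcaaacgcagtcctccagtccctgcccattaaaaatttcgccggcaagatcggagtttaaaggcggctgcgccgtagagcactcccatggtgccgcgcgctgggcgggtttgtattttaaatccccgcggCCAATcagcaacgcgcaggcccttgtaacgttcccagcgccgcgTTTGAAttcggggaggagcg
Cdk1: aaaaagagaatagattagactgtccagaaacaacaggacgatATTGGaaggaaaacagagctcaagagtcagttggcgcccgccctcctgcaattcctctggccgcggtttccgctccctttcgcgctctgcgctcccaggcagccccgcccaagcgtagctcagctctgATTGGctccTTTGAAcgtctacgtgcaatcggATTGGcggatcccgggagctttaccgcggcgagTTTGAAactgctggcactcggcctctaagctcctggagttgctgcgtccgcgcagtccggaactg
A CHR was found on either strand in 18 of the 25 promoters available for the 29 genes that fell (72%), against 14.5% of 8804 promoters of tested genes, and CCAAT in 20 of 25 (80%), against 43.2%. A match describes the letters and does not show that a factor was bound. The list was written from known mitosis genes, so a high share goes with the choice of the list. Members that did not fall were not compared with those that did. Both limits hold for the other motif shares given below.

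Plk1 had 31.4, 28, 41.4 and 29.4 CPM at 18 h, against 90.2, 78.8, 74.8 and 65.6 CPM at 3 h (log2 fold change -1.25 ± 0.14 SE, edgeR adjusted p = 2.37e-09). Cdk1 had 31.4, 41.9, 50.6 and 23.5 CPM at 18 h, against 103, 77.9, 93.1 and 76.6 CPM at 3 h, and the spindle protein Prc1 fell by 1.36. Scaled to spike-ins, Plk1 was at -0.44, Cdk1 at -0.56 and Prc1 at -0.61, and none of the 3 passed (edgeR adjusted p = 0.259, 0.135 and 0.125 in that order). Mki67, the proliferation marker, had 60.2, 57.2, 83.7 and 68.4 CPM at 18 h, against 135, 136, 130 and 111 CPM at 3 h. In these 4 genes no 18 h library reached the lowest 3 h library, and the messages remained well above 0 at 18 h. In the list of DNA replication and nucleotide synthesis, 15 of 34 tested genes fell and 1 rose (median -0.45 with or without replicate 4). With spike-ins the median was 0.40, and -0.10 with spike-ins and without replicate 4. The largest falls were those of the cyclin Ccne2 (-0.92), the thymidylate synthase Tyms (-0.91) and the thymidine kinase Tk1 (-0.77, but 0.28 with spike-ins). The gene that rose was the licensing factor Cdt1 (0.39), a call that was lost in 4 of 8 repeats that leave out a library, with adjusted p up to 0.192 without replicate 2 of 18 h. The other 3 repeats were those without replicates 2, 3 or 4 of 3 h, and 2 genes rose without replicate 1 of 18 h. Pcna, the clamp of DNA polymerase, was at 168 ± 6.24 CPM at 18 h and 173 ± 10.7 CPM at 3 h (adjusted p = 0.757).

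The replication genes are known targets of E2F factors, and an E2F site (TTTCCCGC, TTTGGCGC, TTTCGCGC or TTTGCCGC) was found in 5 of 12 available promoters of those that fell (41.7%), against 4.92% of all. In the mitosis list it was found in 2 of 25 available promoters of the genes that fell (8%). Mcm6, a subunit of the replicative helicase, is shown as the promoter with 3 such matches, 2 of them overlapping, at chr1:128359656-128359955 on the minus strand.
Mcm6: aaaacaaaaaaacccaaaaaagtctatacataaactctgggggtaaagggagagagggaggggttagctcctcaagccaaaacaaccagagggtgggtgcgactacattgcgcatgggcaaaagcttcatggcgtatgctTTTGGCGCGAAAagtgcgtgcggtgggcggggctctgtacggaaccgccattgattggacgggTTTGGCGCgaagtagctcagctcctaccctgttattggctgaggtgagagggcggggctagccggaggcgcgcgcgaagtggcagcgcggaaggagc
Mcm6 was at 70.1 ± 4.36 CPM at 18 h and 94.5 ± 15.1 CPM at 3 h (log2 fold change -0.43, adjusted p = 0.00243, but 0.40 with spike-ins).

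Around the division genes, the regulators of entry into the cycle moved in both directions, 9 of 22 lower and 6 higher (median -0.14, but 0.63 with spike-ins). The inhibitor Cdkn1a (p21), a p53 target, had 210, 154, 184 and 200 CPM at 18 h, against 507, 511, 485 and 557 CPM at 3 h. The D-type cyclin Ccnd2 fell to 10.5 ± 2.44 CPM at 18 h, against 23.7 ± 3.48 CPM at 3 h, and Ccnd1, a target of growth factor signals, was at 119 ± 20.8 CPM at 18 h and 165 ± 24.4 CPM at 3 h. Ccnd1 passed at an adjusted p of 0.0194, yet its sign was reversed with spike-ins (0.50), and its call was lost without replicate 2 of 18 h (-0.37, adjusted p = 0.0698), replicate 3 of 3 h (-0.42, adjusted p = 0.0577) or replicate 4 of 3 h (-0.43, adjusted p = 0.0532). Myc, the growth factor-induced transcription factor, had 0.581, 0.632, 0.839 and 4.38 CPM at 18 h, against 4, 6.53, 9.68 and 8.43 CPM at 3 h, replicate 4 alone reaching the 3 h range. Its log2 fold change was -2.16 with replicate 4 and -3.32 without it. Mnt, which opposes Myc on shared sites, rose to 69 ± 5.08 CPM at 18 h, against 34.9 ± 2.52 CPM at 3 h. Genes of ribosome assembly in the nucleolus, many of them Myc targets, fell in 17 of 26 cases and rose in none. Their median was -0.51, or -0.39 without replicate 4. With spike-ins it was 0.25, and -0.05 with spike-ins and without replicate 4. Among these genes, Rrp9 and Bop1 fell by 0.89 and 0.76.

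The p53 targets were lower in 11 of 20 cases and higher in 2 (median -0.45, but 0.37 with spike-ins). The death receptor Fas had 6.58, 7.27, 6.57 and 4.73 CPM at 18 h, against 19.1, 17.6, 21.1 and 34.2 CPM at 3 h, and Phlda3 fell by 1.78. The 2 that rose were Bbc3 (PUMA), a killer of the BCL2 family, at 0.65, and Sesn2 at 0.47, whose call was lost without replicate 4 of 18 h (0.24, adjusted p = 0.292) and without replicates 1, 3 or 4 of 3 h (0.38, 0.46 and 0.46, adjusted p = 0.128, 0.0683 and 0.0706). Mcl1, a survival factor of the same family, rose to 905 ± 107 CPM at 18 h, against 607 ± 29.4 CPM at 3 h. Targets of FOXO, factors that are held in the cytoplasm when growth factor and insulin signals are strong, rose in 11 of 25 cases and fell in 3 (median 0.42). The insulin receptor Insr had 16.3, 17.7, 19.7 and 23.8 CPM at 18 h, against 4, 5.4, 7.48 and 7.41 CPM at 3 h. The stress protein Sesn1 had 174, 174, 180 and 231 CPM at 18 h, against 63.6, 62.6, 59.4 and 62.3 CPM at 3 h. Both stood clear of the 3 h libraries, with log2 fold changes of 1.67 and 1.61.

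Interferon-stimulated genes were higher at 18 h, without S14 or LPS, in 30 of 48 tested genes, and lower in 2, with a median of 0.59. Ifi44 had 250, 220, 176 and 226 CPM at 18 h, against 31.6, 30.6, 21.3 and 23.7 CPM at 3 h (log2 fold change 3.02 ± 0.12 SE, edgeR adjusted p = 2.99e-22). Irf7, the factor that amplifies type I interferon production, had 541, 481, 366 and 605 CPM at 18 h, against 138, 161, 131 and 137 CPM at 3 h. Both were several-fold higher in every 18 h library. Slfn1, which restrains lymphocyte growth in the mouse, rose by 2.20 and Oasl2 by 1.15. The list did not move as a whole, since Ifit1 had 581, 533, 518 and 1680 CPM at 18 h, against 590, 692, 616 and 617 CPM at 3 h, and Usp18, a brake on the interferon receptor, was at 91.3 ± 12.8 CPM at 18 h and 82.3 ± 9.23 CPM at 3 h. Neither passed, at adjusted p of 0.277 for Ifit1 and 0.294 for Usp18, and the Ifit1 value of replicate 4 stood far above those of the other 18 h libraries. The 2 that fell were Cxcl10 and Mx2 (-0.72, but 0.10 with spike-ins), and 4 fell without replicate 1 of 18 h. Replicate 4 was also the highest for Isg15, a ubiquitin-like protein, with 534, 439, 404 and 933 CPM at 18 h, against 277, 259, 246 and 235 CPM at 3 h. Without replicate 4 the log2 fold change of Isg15 was 0.85. Bst2 (tetherin), which holds back budding viruses, was at 1.62 with replicate 4 and 1.26 without it.

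Interferon acts on these genes through the interferon-stimulated response element (ISRE), searched on both strands as GAAA, NN and GAAA in a row. It was held by 14 of 23 available promoters of the genes that rose (60.9%), against 4.19% of all. The list was written as genes known to respond to interferon, so a high share goes with that choice. The promoters of Isg15 at chr4:156200769-156201068 on the minus strand and Bst2 at chr8:71537423-71537722 on the minus strand are shown for their overlapping ISRE letters upstream of the start.
Isg15: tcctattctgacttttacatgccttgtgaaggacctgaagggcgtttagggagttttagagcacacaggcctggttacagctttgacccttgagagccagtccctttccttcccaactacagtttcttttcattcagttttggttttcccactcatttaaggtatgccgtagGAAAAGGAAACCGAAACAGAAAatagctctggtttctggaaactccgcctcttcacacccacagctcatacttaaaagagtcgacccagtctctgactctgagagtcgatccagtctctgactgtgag
Bst2: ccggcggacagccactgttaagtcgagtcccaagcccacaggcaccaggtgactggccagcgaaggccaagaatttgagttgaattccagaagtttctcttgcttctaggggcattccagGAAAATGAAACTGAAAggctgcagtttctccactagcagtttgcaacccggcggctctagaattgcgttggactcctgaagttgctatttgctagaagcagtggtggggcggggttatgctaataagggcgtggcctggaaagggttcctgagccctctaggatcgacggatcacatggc
These letters lie before the start in both promoters.

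The antigen presentation genes of MHC class II rose together, in 8 of 10 tested genes with none lower, and with a median of 1.28 (2.12 with spike-ins). Ciita, their master regulator, had 54, 28.5, 32.3 and 36.6 CPM at 18 h, against 5.65, 4.95, 4.62 and 3.06 CPM at 3 h, a log2 fold change of 3.03 ± 0.26 (SE, adjusted p = 1.63e-12). Cd74, the invariant chain that guards the peptide groove, had 727, 699, 724 and 1420 CPM at 18 h, against 170, 167, 137 and 163 CPM at 3 h. It was at 2.49 with replicate 4, the highest library, and at 2.17 without it. The beta chain gene H2-Ab1 had 276, 214, 230 and 259 CPM at 18 h, against 59.6, 73, 59 and 70.7 CPM at 3 h. The alpha chain H2-Aa and the peptide editor H2-DMb1 rose by 1.61 and 1.04. Dendritic cells also carry class II, and their 10 markers summed to 6.17 to 18.6 CPM at 18 h and 1.53 to 4.84 CPM at 3 h, with 2 of the 10 at 0 in all 8 libraries. B cell markers summed to 96.4 to 175 CPM at 18 h and 32.2 to 42.9 CPM at 3 h, nearly all of it Ighm, the mu heavy chain gene, which rose by 1.79 while Ms4a1 and Pax5 stayed at 0 reads. The part of these cell types in the class II values was not tested.

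The receptors by which macrophages sense and clear their surroundings changed as well. Of 14 tested chemokine and formyl peptide receptors, 9 rose and 2 fell (median 1.04). Cxcr4, the receptor for Cxcl12, had 140, 148, 117 and 161 CPM at 18 h, against 57.9, 62.2, 43.6 and 51.8 CPM at 3 h. The chemerin receptor Cmklr1 rose by 1.86 and the monocyte receptor Ccr2 by 1.02, and 1 receptor rather than 2 fell without replicate 2 of 3 h and with the 8 untreated libraries alone. The fractalkine receptor Cx3cr1 had 105, 86.3, 118 and 281 CPM at 18 h, against 196, 157, 209 and 233 CPM at 3 h. It overlapped and did not pass (log2 fold change -0.43, adjusted p = 0.257), and without replicate 4 it passed as lower (-0.95, adjusted p = 0.000839). Among scavenger and C-type lectin receptors 8 rose and 8 fell of 22. Clec4e (Mincle), a sensor of mycobacterial glycolipid and an NF-kB target, had 33.1, 39.2, 29.8 and 35.4 CPM at 18 h, against 220, 176, 194 and 231 CPM at 3 h. Clec4a3, a lectin of the DCIR group, went the other way, with 175, 159, 156 and 155 CPM at 18 h, against 47.6, 33.8, 37.2 and 33.7 CPM at 3 h. Clec10a (MGL1), a galactose lectin of alternatively activated cells, rose by 1.94, while Mgl2 of the same list was at -2.03, and at -2.82 without replicate 4 of 18 h. For the mannose receptor Mrc1 the level was at 273 ± 52.8 CPM at 18 h and 231 ± 13.3 CPM at 3 h and did not pass (edgeR adjusted p = 0.0623). Mrc1 passed as higher without replicate 1 of 18 h (log2 fold change 0.30, adjusted p = 0.0247) and without replicate 2 of 18 h (0.30, adjusted p = 0.0256).

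Genes for the uptake of apoptotic cells rose in 9 of 19 tested cases and fell in 3 (median 0.49). Mertk, a receptor tyrosine kinase for phosphatidylserine bridged by Gas6 and protein S, had 109, 105, 106 and 63.7 CPM at 18 h, against 21.9, 32, 24 and 16.3 CPM at 3 h. Its log2 fold change was 2.02 ± 0.21 (SE, adjusted p = 4.01e-08), with replicate 4 the lowest of the 18 h libraries and still above every 3 h library. Its relative Axl rose by 1.28 and the bridge Gas6 by 0.53. The transglutaminase Tgm2, which aids the engulfing portal, had 31.9, 31.3, 30.5 and 32.7 CPM at 18 h, against 208, 222, 269 and 277 CPM at 3 h, and fell by 2.95. Complement genes rose in 10 of 17 tested cases and fell in 1 (median 0.62). C3, on which all complement pathways meet, had 323, 313, 284 and 288 CPM at 18 h, against 92.3, 115, 96.8 and 84 CPM at 3 h. The C1q chains that start the classical pathway rose together, C1qa by 1.05, C1qc by 0.67 and C1qb by 0.49.

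Relative to the typical gene, genes of cholesterol efflux and of cholesterol synthesis moved in opposite directions in part, but not with spike-in scaling. Of 15 tested targets of LXR, the sterol-sensing nuclear receptor, 7 rose and 3 fell (median 0.20). Pltp, a phospholipid carrier, had 1410, 1520, 1410 and 1720 CPM at 18 h, against 356, 440, 408 and 418 CPM at 3 h (log2 fold change 1.90 ± 0.09 SE, adjusted p = 5.47e-21). The efflux pump Abcg1 was at 411 ± 14.3 CPM at 18 h and 126 ± 21.5 CPM at 3 h (SD, n = 4 each), and the pump Abca1 and the lipid carrier Apoe rose by 0.98 and 1.17. Scd1, a desaturase that LXR and SREBP both control, went down, with 16.5, 23.1, 28.7 and 21.2 CPM at 18 h, against 74.9, 105, 108 and 109 CPM at 3 h. Genes of cholesterol synthesis and uptake, the targets of SREBP2, fell in 9 of 24 tested cases and rose in none (median -0.30, but 0.55 with spike-ins). The share called was 37.5%, against 38.8% of all tested genes, of which 19.6% were lower. With spike-ins 5426 of all 11717 tested genes were higher and 213 lower. On that scale 7 of these 24 cholesterol genes rose and none fell, and 10 of 15 LXR targets rose and 1 fell. Without replicate 4 as well, none rose and 1 fell, and 8 LXR targets rose and 1 fell. Hsd17b7, an enzyme of the pathway, fell by 1.20. The count of 9 was 4 without replicate 4 of 3 h, and 1 gene rose without replicate 1 of 18 h.

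Lysosome genes rose in 19 of 30 tested cases and fell in 2 (median 0.36, and 1 lower without replicate 1 of 3 h), on summed levels of 41700 to 50000 CPM at 18 h and 35000 to 36400 CPM at 3 h. Atp6v0d2, a subunit of the proton pump, had 87.1, 135, 113 and 107 CPM at 18 h, against 37.9, 40.1, 29 and 26 CPM at 3 h. The protease Ctss (cathepsin S), which trims the invariant chain, had 5840, 6020, 5320 and 4640 CPM at 18 h, against 2120, 2290, 1990 and 2020 CPM at 3 h, a log2 fold change of 1.37 ± 0.08 (SE, adjusted p = 4.57e-17). Mcoln1, the lysosomal calcium channel, also stood at 1.37, but 112 CPM in replicate 4 lay far above 39.3, 39.2 and 39.6 CPM in the other 18 h libraries, and it was 0.83 without it. The factors TFEB and TFE3 bind the CLEAR element (TCACGTGA), which 3 of 15 available promoters held (20%), against 2.41% of all. Gla, the alpha-galactosidase that is lacking in Fabry disease, is shown because it holds 2, at chrX:134600956-134601255 on the minus strand.
Gla: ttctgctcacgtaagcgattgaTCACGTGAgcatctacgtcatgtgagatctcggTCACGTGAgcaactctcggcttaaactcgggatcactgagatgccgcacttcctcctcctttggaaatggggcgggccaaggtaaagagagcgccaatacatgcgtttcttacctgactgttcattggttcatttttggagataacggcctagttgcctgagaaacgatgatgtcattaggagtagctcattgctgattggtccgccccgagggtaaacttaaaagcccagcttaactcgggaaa
Gla was at 176 ± 57.5 CPM at 18 h and 93.9 ± 7.88 CPM at 3 h (log2 fold change 0.90, adjusted p = 1.02e-05).

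Genes of lipid storage and fatty acid use rose in 11 of 27 tested cases and fell in 5 (median 0.17), among them the nuclear receptor Pparg at 1.17 and the fatty acid carrier Fabp4 at 0.92. Lpl, the lipoprotein lipase, was at 6700 ± 228 CPM at 18 h and 6690 ± 283 CPM at 3 h, a difference within the spread of the libraries. Respiratory chain genes of the nucleus fell in 15 of 30 cases and rose in 2, by small amounts (median -0.21, but 0.66 with spike-ins). With the 8 untreated libraries alone 9 fell. Cox4i1, Ndufa1 and Ndufb8 were at -0.56, -0.52 and -0.51, and with spike-ins at 0.17, 0.12 and 0.24, and Ndufa1 did not pass with the 8 untreated libraries alone (edgeR adjusted p = 0.0627). Of 8 tested mitochondrial transcripts, mt-Nd3, mt-Nd1 and mt-Cytb fell by 1.15, 0.47 and 0.29 (mt-Nd1 0.33 and mt-Cytb 0.62 with spike-ins), on a share of all gene reads of 1.48 to 1.67% at 18 h and 1.59 to 2.07% at 3 h. Of these transcripts 37.5% were called, near the 38.8% of all tested genes, and their median log2 fold change was -0.1. The call of mt-Cytb was lost without replicate 2 of 18 h and without replicates 2 or 3 of 3 h (adjusted p = 0.0528, 0.0665 and 0.0587), and 1 mitochondrial transcript rose without replicate 4 of 18 h.

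Growth factor receptors and lineage transcription factors rose in 13 of 28 tested cases and fell in 7 (median 0.34). Cebpa, a factor of myeloid differentiation, had 82.1, 86, 63.7 and 99.8 CPM at 18 h, against 22.8, 30.4, 32.1 and 26 CPM at 3 h, and the G-CSF receptor Csf3r rose by 1.87. Adgre1, the gene of the F4/80 antigen, had 1460, 1450, 1470 and 2380 CPM at 18 h, against 606, 579, 569 and 571 CPM at 3 h. Csf1, which encodes M-CSF itself, was at 8.71 ± 1.51 CPM at 18 h and 7.85 ± 0.722 CPM at 3 h (adjusted p = 0.48), and the LPS receptor Tlr4 at 92.3 ± 3.1 and 80.9 ± 5.89 CPM in that order (adjusted p = 0.137). Spp1 (osteopontin), a secreted matrix protein, had 877, 1050, 892 and 1000 CPM at 18 h, against 1910, 2560, 1870 and 1930 CPM at 3 h, and the fibronectin receptor chain Itga5 and the protease Mmp19 fell by 2.16 and 1.45. Among genes of arginine and nitric oxide metabolism and alternative activation, 7 of 17 fell and 3 rose (median -0.72, but 0.11 with spike-ins). Acod1, which makes itaconate, had 35.6, 28, 22.2 and 18.4 CPM at 18 h, against 278, 265, 255 and 271 CPM at 3 h, and Arg1 had 0 reads at 18 h and 2 reads at 3 h.

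Clock genes, whose levels follow a daily rhythm in many cells, rose in 10 of 18 tested cases and fell in 2 (median 0.58). Dbp, a clock output factor, had 21.9, 24.5, 22.1 and 25.4 CPM at 18 h, against 5.18, 5.4, 7.04 and 7.15 CPM at 3 h (log2 fold change 1.92 ± 0.26 SE, adjusted p = 6.27e-08). The repressor Nr1d1 (Rev-erb alpha) had 6, 8.54, 11 and 12.8 CPM at 18 h, against 4.94, 3.6, 1.98 and 3.83 CPM at 3 h. The repressor Bhlhe41 and the kinase Csnk1e rose by 1.22 and 0.99. Arntl (BMAL1), which activates Nr1d1 and Dbp, was at 0.90 and lost its call without replicate 4 of 18 h (0.60, adjusted p = 0.113). The 2 that fell were Cry2 (-0.83) and Csnk1d (-0.33), and without replicate 4 of 18 h neither was called. Cry2 lost its call in 5 of the 8 repeats that leave out a library, with adjusted p from 0.0506 to 0.134, and Csnk1d in 3, and with spike-ins Csnk1d was at 0.35. Per2 was below the limit for testing, with 40 reads at 18 h and 11 at 3 h. With 2 times and an unstated hour of harvest, no phase can be read from these values.

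Several kinds of small noncoding RNA, which lack the long poly(A) tail that the library method primes on, were lower at 18 h, and others were not. The 11 tested 5S ribosomal RNA genes summed to 1.94, 2.06, 3.5 and 8.23 CPM at 18 h, against 32.3, 34.9, 44.5 and 60.3 CPM at 3 h, and since these copies are near-identical only their sum is given. Gm25541, a small RNA gene at chr2:27539805-27539930, had 1.94, 1.74, 0.559 and 1.58 CPM at 18 h, against 29.9, 23.9, 29 and 34.2 CPM at 3 h. The Y RNA Rny3, which binds the Ro protein, had 4.06, 1.42, 0.979 and 0 CPM at 18 h, against 27.8, 25.9, 28.2 and 36.8 CPM at 3 h. In each of these the 18 h libraries lay far below all 3 h libraries, and Rny3 was at -4.24 with all libraries and -5.11 without replicate 1 of 18 h. Rn7sk, which holds the elongation factor P-TEFb inactive, was at 13.4 ± 2.36 CPM at 18 h and 49.8 ± 8.01 CPM at 3 h, and the vault RNA Vaultrc5 at 1.93 ± 0.799 and 20.8 ± 3.41 CPM in that order. By class, 10 of 12 tested ribosomal, 5 of 6 miscellaneous and 15 of 31 small nuclear RNA genes fell and none rose. Of small nucleolar RNA genes 1 of 6 fell, on a sum of 34.5 ± 13.4 CPM at 18 h and 36.8 ± 5.87 CPM at 3 h. Neither of 2 small Cajal body RNA genes passed. Of 5 genes annotated as microRNA 2 fell, n-TStga1 (-4.67) and n-TSaga9 (-4.66), whose symbols are those of nuclear tRNA genes. Mir703 (-0.18), Gm26384 (-0.13) and Gm24276 (-0.07) did not pass. Mitochondrial tRNA genes went the other way, with 4 of 9 higher and a sum of 159 ± 40.7 CPM at 18 h and 78 ± 6.79 CPM at 3 h. Among 398 tested processed pseudogenes 122 fell and 8 rose (median -0.47), and without replicate 4 of 18 h 94 fell and 12 rose (median -0.30). Reads in the separate ribosomal entries were 0.302 to 0.393% at 18 h and 0.391 to 0.457% at 3 h.

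**Figure D3:**
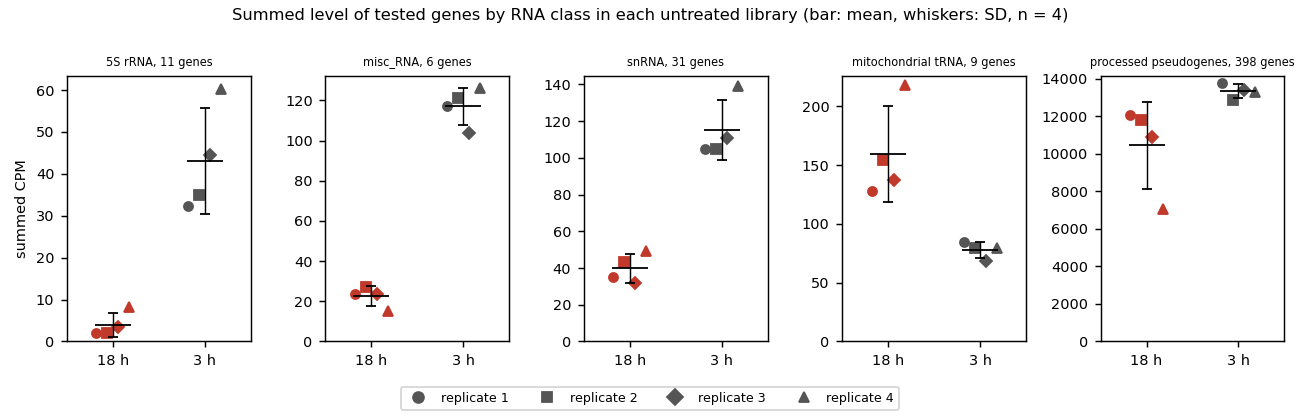
Summed level in CPM of the tested genes of 5 RNA classes in each untreated library, 18 h on the left and 3 h on the right of each panel, with a bar for the mean and whiskers for the SD (n = 4). 5S ribosomal, miscellaneous and small nuclear RNA sums at 18 h lie below every 3 h library and mitochondrial tRNA above, and the processed pseudogene sum of replicate 4 at 18 h is the lowest of all 8, at 7080 CPM.

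**Figure D4:**
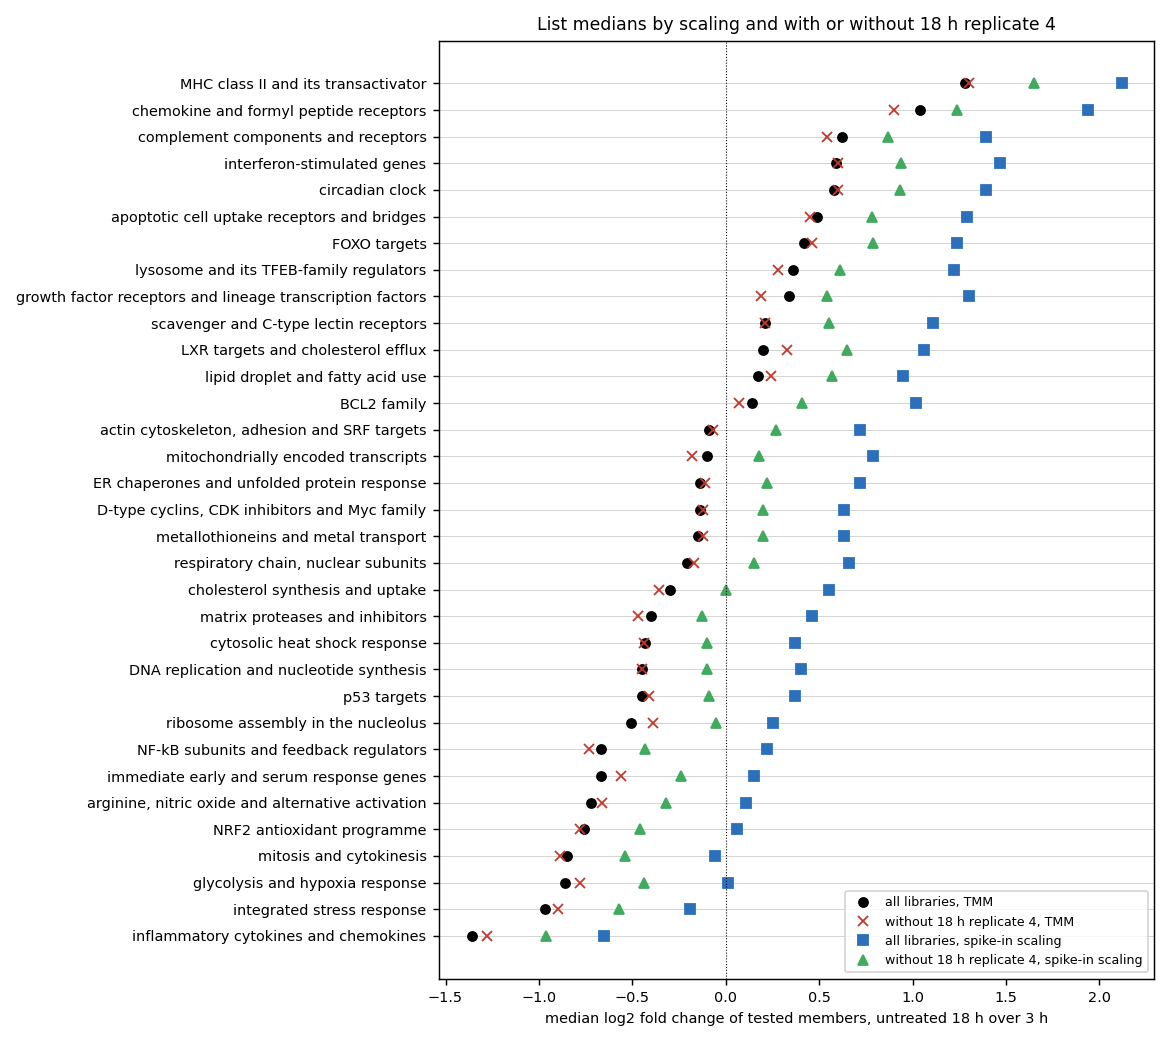
Median log2 fold change of each gene list, 18 h over 3 h, with TMM or spike-in scaling, with all libraries and without replicate 4 of 18 h. With spike-ins and all libraries the cytokine median lies at -0.65, those of the integrated stress response and mitosis at -0.19 and -0.06, and spike-in scaling moves every list to the right, by 0.827 at the median gene with all libraries and 0.342 without replicate 4.

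The same interval was then followed in the treated cells, whose libraries are not shared with the untreated ones. Between 18 h and 3 h, 5061 genes changed in S14-treated cells (43.2% of tested genes, 21% higher and 22.2% lower) and 7538 in LPS-treated cells (64.3%, 31.7% higher and 32.7% lower). Of the 4547 genes that changed in untreated cells, 2723 also changed with the same sign in S14-treated cells, 142 changed with the opposite sign and 1682 were not called. In LPS-treated cells 2229 changed with the same sign, 1102 with the opposite sign and 1216 were not called. Across all 11717 genes, the log2 fold changes correlated with those of untreated cells at Pearson's r of 0.64 for S14 (Spearman's rho 0.61) and 0.30 for LPS (0.26), as a description across genes, which are not independent. The time effect itself differed between S14-treated and untreated cells for 1944 genes (16.6%), and between LPS-treated and untreated cells for 6000 (51.2%), by edgeR's test of the interaction. Among the 4547 genes the interaction was called for 1178 with S14 (25.9%) and 2847 with LPS (62.6%). These interactions use the untreated libraries on one side, so they share the noise of the untreated values that chose the 4547 genes.

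Mitosis genes fell in all 3 settings, with medians of -2.35 in S14-treated cells (34 of 35 lower), -3.53 in LPS-treated cells (35 of 35) and -0.85 in untreated cells. For Plk1 the log2 fold changes were -2.79 with S14, -5.91 with LPS and -1.25 untreated, and both interactions passed (edgeR adjusted p = 1.46e-06 and 1.12e-14). Tnf fell by 5.24 with S14, 3.29 with LPS and 3.56 untreated, of which the S14 difference passed (adjusted p = 7.33e-11) and the LPS difference did not (adjusted p = 0.116). Id1 fell in all 3 groups, and its time effect with S14 or LPS did not pass as different from that of untreated cells (adjusted p = 0.149 for S14 and 0.884 for LPS). Glycolysis split the treatments, with 20 of 28 genes lower in S14-treated cells, 7 lower and 18 higher in LPS-treated cells, and 20 lower in untreated cells. For Slc16a3 the changes were -2.43 with S14, 1.61 with LPS and -2.58 untreated, and the LPS difference passed (adjusted p = 1.27e-25). Class II genes rose in 7 of 10 cases with S14, in 4 with 6 lower with LPS, and in 8 in untreated cells. Ciita rose by 2.23 with S14, fell by 1.23 with LPS and rose by 3.03 untreated, the S14 difference not passing (adjusted p = 0.156) and the LPS difference passing (adjusted p = 1.68e-09). Interferon-stimulated genes, 30 of 48 higher in untreated cells, were higher in 16 and lower in 21 with S14 and higher in 7 and lower in 38 with LPS. Abcg1 rose by 2.06, 1.87 and 1.70 with S14, with LPS and untreated, with no difference that passed (adjusted p = 0.153 and 0.421). The highest gene Cilp2 rose by 2.78 with S14, was at 1.44 with LPS (adjusted p = 0.169), and both differences passed (adjusted p = 0.00025 and 0.00113), on 1 read at 3 h in untreated cells.

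**Figure D5:**
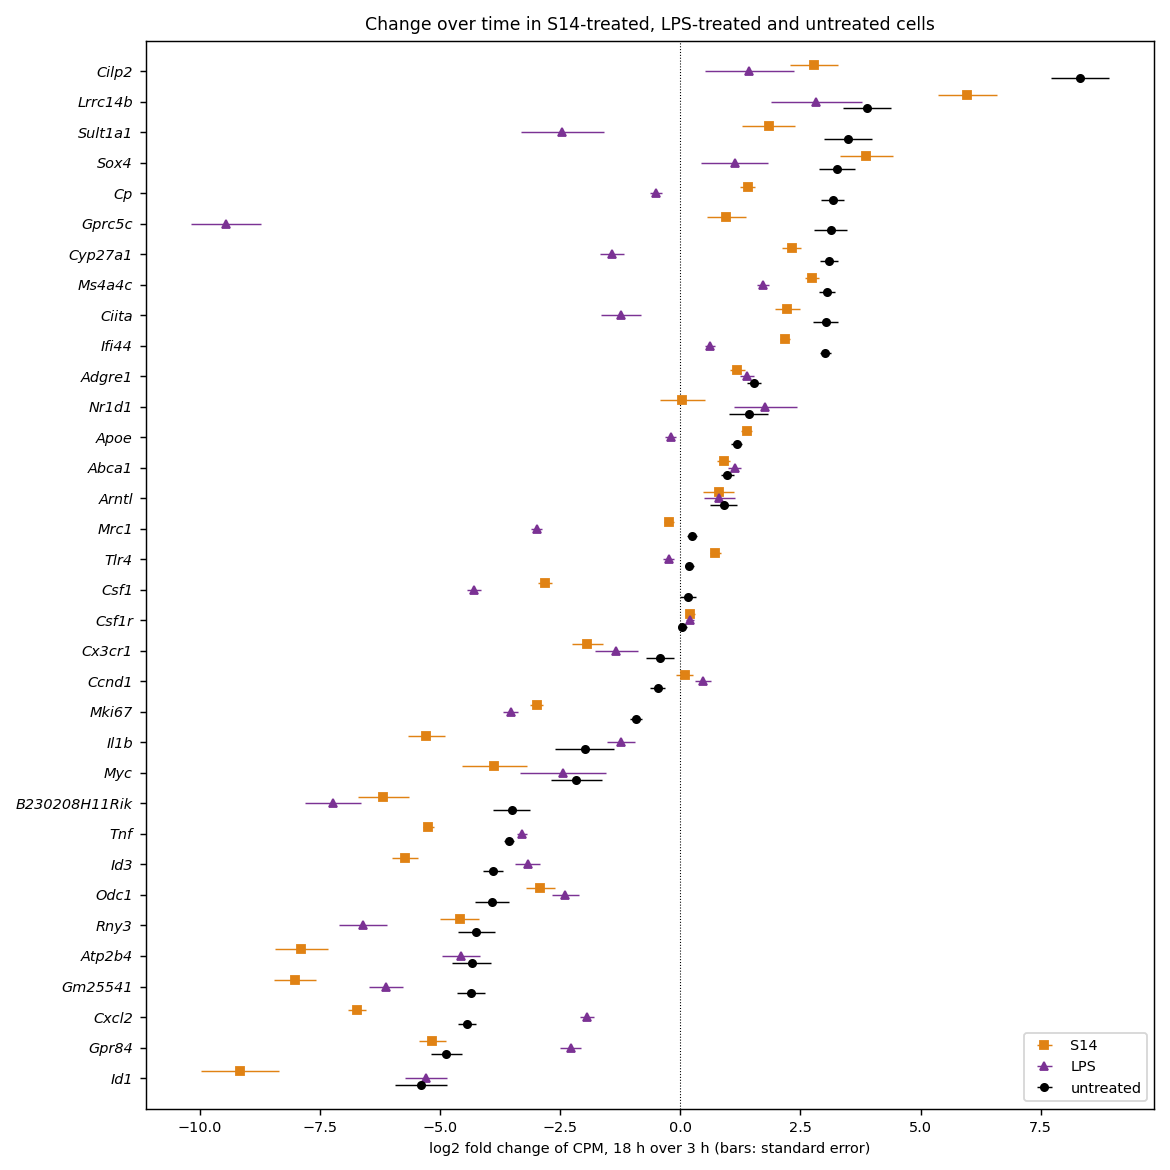
Log2 fold change of 18 h over 3 h with its SE in S14-treated, LPS-treated and untreated cells, from separate libraries, for the 10 genes that rose most, the 10 that fell most and the index genes reported here. Tnf lies at -5.24, -3.29 and -3.56 in that order of groups, and Cyp27a1 and Ciita lie below 0 in LPS-treated cells (-1.42 and -1.23) and above 0 in untreated cells (3.09 and 3.03). Fitted values of genes with almost no reads in a group, such as Id1 at 18 h in S14-treated cells, depend on the fit and bound nothing.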

How the data were processed

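Per the labels' protocols, RNA of 24 cultures was purified with DNase treatment, and 3' end libraries were primed with oligo(dT) and sequenced on a NextSeq 2000. The submitters' processing notes name cutadapt 1.18, FastQC, STAR 2.6.1a, featureCounts 1.6.4, DESeq2 and GRCm38. The authors deposited whole read counts per gene, for 55401 gene IDs, of which 55141 are in GENCODE M21. They also deposited a signal table of reads divided by a size factor, which includes 114 spike-in RNAs, 62 of them detected. From it whole reads were recovered for 100% of values, within 8.59e-10 of a whole number, and the 2 tables differ for 7689 genes. The main values come from the count table, without 7 ribosomal entries.

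The edgeR function filterByExpr chose the genes (minimum count 10, total 15), which were scaled by TMM and fitted with 1 mean per group over all 24 libraries (edgeR 4.0.16, R 4.3.3, robust quasi-likelihood, 18 residual degrees of freedom), with Benjamini-Hochberg adjustment over 11717 genes and a threshold of 0.05. The SE of a fold change is its size over the square root of the F statistic. On simulated counts with 197 changed genes among those fitted, the fit recovered 47% of 1.5-fold, 67.2% of 2-fold and 93.8% of 4-fold changes between the untreated times, and 8 of 144 calls were on unchanged genes. Gene lists and members were chosen with earlier results of these data known. Genes were named by rule: the 10 highest and 10 lowest called genes at 10 CPM or more in the higher group without overlap, the 3 called list members of largest change, and 20 index genes. Some genes that this rule or the lists hold are not reported here. Other genes named in the text were chosen after their values were seen. Lists are described by counts and medians, with no test of a list. Promoters are RefSeq's, matched by symbol. Alternatives were DESeq2 1.42.0, its size factors, spike-in scaling, other filters, recovered reads, the 8 libraries alone, a replicate block and leaving out each library. Thinning every library to the shallowest was chosen after seeing the data. Intervals on reads cover counting error only.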

Additional observations from a re-analysis of the deposited data

Results flagged for a closer look

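In 21 of 249 groups examined, 1 library of a group of 4 lay far from the other 3 of its group, by Dixon's test at the 95% level. Chance flags about 1 in 20 groups. At 18 h the library that stood apart was replicate 4 in 11 of these 21. It was high for Cd74 (1420 CPM), Adgre1 (2380 CPM), Cx3cr1 (281 CPM), Mcoln1 (112 CPM), Sesn1 (231 CPM), Txnrd1 (67.4 CPM), Actg1 (26.8 CPM) and Myc (4.38 CPM), and low for Mertk (63.7 CPM), Rrp1b (7.53 CPM) and Hyou1 (4.03 CPM). Actg1 was called higher at 18 h only with this library (log2 fold change 0.66, adjusted p = 0.111 without it). Egr1 was high in replicate 3 of 18 h (6.15 CPM).

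At 3 h, replicate 1 was low for Mnt (31.1 CPM), Scd1 (74.9 CPM), mt-Nd1 (3720 CPM), Cxcl10 (241 CPM), C1qc (641 CPM) and Ccnd1 (129 CPM), replicate 2 was high for Spp1 (2560 CPM) and held the only Cilp2 read (0.225 CPM), and replicate 4 was low for Cp (0.766 CPM).

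The change over time in S14-treated cells differed from that in untreated cells for 1944 genes, and the change in LPS-treated cells for 6000, each by edgeR's test of the interaction.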

How the results depend on the processing

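Against 4547 genes called, 2426 passed when scaled to spike-ins without replicate 4 of 18 h. With spike-in scaling 5426 genes were higher and 213 lower, and 369 lower without replicate 4. By at least 2-fold, 4120 were higher and 181 lower with spike-ins, 1173 higher and 278 lower without replicate 4 as well, and 378 lower among genes of at least 10 CPM in 4 libraries. Why the spike-in share differed was not tested. Leaving out each library in turn gave 3960 to 4463 genes called (1952 to 2189 higher, 2008 to 2274 lower), 586 to 685 higher and 558 to 671 lower by at least 2-fold, and 1677 to 2118 and 5744 to 6121 genes whose time effect differed with S14 and with LPS. The spike-in share difference ran from -0.0224 to -0.0129 percentage points, and 5 of these 8 repeats gave an exact permutation p above 0.05. In all 8 every 18 h share still lay below every 3 h share. All 8 set 3 libraries against 4 and so allow the same number of splits, and why their p differed was not tested. The other counts over all tested genes were within 1.5 times of those reported, the number called ranging from 3647 with the 8 untreated libraries alone to 4705 with DESeq2.

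Spike-in scaling turned the sign of Tk1 (0.28), Cox4i1 (0.17), Ndufa1 (0.12, and 0.01 without replicate 4), Ndufb8 (0.24), mt-Nd1 (0.33), mt-Cytb (0.62, and 0.04), Pdia6 (0.11), Bad (0.17, and 0.01), Slc30a4 (0.25), Ccnd1 (0.50) and Cx3cr1 (0.77). Csf1r was at -0.04 without replicate 1 of 18 h and 0.12 without replicate 4. Over the named genes, 83 of 125 kept direction and call with spike-ins, 103 with spike-ins and without replicate 4, and at least 121 in every other setting.

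Counts of list members moved as well. With the 8 untreated libraries alone, 1 immediate early gene and 1 p53 target rose against 2 each with all libraries, and no clock gene fell against 2. Without a filter, with the stricter filter or after thinning 1 clock gene fell, and after thinning 1 immediate early gene rose. DESeq2 called 1 gene of cholesterol synthesis and 1 NRF2 target higher against none. DESeq2, its size factors in edgeR and the stricter filter each called 2 ER chaperone genes higher against 1, and the recovered reads called no heat shock gene higher against 1.

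With the replicate number as a block, 4604 genes were called. Deviations of same-numbered libraries of the 2 times correlated at 0, 0.01, 0.052 and 0.057, and those of differently numbered libraries at -0.06 to 0.034. All of these are small, the highest being between same-numbered libraries, and whether the numbers pair the libraries was not tested. The block called 4 interferon-stimulated genes lower against 2 and 2 ER chaperone genes higher against 1, and gave Cx3cr1 a call (-0.53, adjusted p = 0.0347). On simulated counts the fit found 93.8% of 4-fold changes but 47% of 1.5-fold ones, so small changes may be missed. Only 197 of 11538 genes were changed there, far fewer than were called in the data, so these rates may not hold for the data.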

Other observations

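Markers of other cell types had their own differences. Pf4, the platelet factor 4 chemokine that macrophages can also express, had 51.3, 46.3, 47.1 and 38 CPM at 18 h, against 178, 144, 159 and 137 CPM at 3 h, and fell by 1.76 on the log2 scale. Lyz2, the macrophage lysozyme, was at 28500 ± 5850 CPM at 18 h and 14300 ± 733 CPM at 3 h (SD, n = 4 each). The LPS co-receptor Cd14 and the scavenger receptor Msr1 were the 2 of 12 macrophage markers that fell, Cd14 to 835 ± 128 CPM at 18 h, against 1530 ± 190 CPM at 3 h, and Msr1 to 119 ± 30.8 CPM at 18 h, against 246 ± 18.8 CPM at 3 h, though with spike-ins Cd14 was at 0.08 and Msr1 at -0.04. Monocyte markers summed to 127 to 185 CPM at 18 h and 42.6 to 64.4 CPM at 3 h, neutrophil markers to 11.9 to 18.6 CPM and 20 to 30.1 CPM in that order of times, T cell markers to 152 to 276 CPM and 128 to 172 CPM, osteoclast markers to 66 to 83.2 CPM and 45.2 to 56.5 CPM, and endothelial markers to 50.3 to 67.4 CPM and 30.1 to 39.1 CPM.

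Genes of metal handling and matrix turnover moved in both directions. The zinc exporter Slc30a1 rose by 1.45, the zinc importer Slc39a4 fell by 1.32 and the iron exporter Slc40a1 rose by 0.74, in a list with 4 of 18 tested genes higher and 7 lower (8 higher and none lower with spike-ins). Among matrix proteases and inhibitors 4 of 22 rose and 6 fell, and 6 rose and 1 fell with spike-ins. The urokinase Plau and its receptor Plaur fell by 0.96 and 1.29, and with spike-ins Plau was at 0.11. In the actin and adhesion list 6 of 31 rose and 9 fell, with 14 higher and 1 lower with spike-ins and 3 higher with the 8 untreated libraries alone. Of all tested genes 19.2% rose and 19.6% fell, and with spike-ins 5426 of 11717 were higher and 213 lower. In the BCL2 family list 4 of 15 rose and 2 fell, where 2 to 4 rose when 1 library was left out, and 2 rose and 1 fell with the 8 untreated libraries alone.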
